A study of Homo sapiens with 6 samples.

Results

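The interleukin-1 family and its receptors were followed in AsPC-1, an established human pancreatic adenocarcinoma cell line, through 10 of the 20263 genes of the deposited table. The 10 were chosen by name: the ligands IL1A, IL1B, IL18, IL33 and IL36G, the antagonist IL1RN, the receptors IL1R1, IL1R2 and IL1RAP, and the protease CASP1. The list was drawn up with the average changes of IL1RN and IL18 over both siRNAs against control already known, so the values of the 10 genes in knockdown against control are given as a description and support nothing. The difference between the siRNAs is another contrast and was tested. The control means do not enter it, but the control libraries enter the spread behind its p-values. The known averages came from the same knockdown libraries, so the test for IL1RN and IL18 is not free of the choice. Cells were transfected with a negative control siRNA (siControl) or with either of a pair of siRNAs against HMOX1, the gene of the haem-degrading enzyme heme oxygenase 1 (HMOX1si1 and HMOX1si2), using the reagent jetPRIME, and messenger RNA was sequenced in 2 libraries per group. No other agent is named, every group was transfected, and the time from transfection to harvest is not given in the sources used here. Nothing states that the 2 libraries of a group came from separate cultures, so every p-value measures only the spread between these libraries, which may be technical.

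Interleukin-1 signalling starts when IL1A or IL1B binds the receptor IL1R1, which then recruits the accessory chain IL1RAP and, through the adaptor MYD88 and the kinases of the IRAK group, activates NF-kappaB and MAP kinases. The antagonist encoded by IL1RN occupies IL1R1 without recruiting IL1RAP, and the decoy receptor IL1R2 binds the ligands without signalling. IL1B and IL18 are made as inactive precursors that caspase 1 cleaves after inflammasomes activate it, whereas the IL1A precursor is active before cleavage, and pancreatic tumours are known for interleukin-1 made by both tumour cells and stroma.

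Library totals ran from 36144330 to 45068660 counts. Levels are given as CPM, counts scaled to a common library size, where 3 counts, the limit that a count of 0 allows, correspond to 0.0663 to 0.0829 CPM (counting error only). The targeted gene checked the labels: HMOX1 stood at 9.06 and 8.52 CPM in siControl, 2.43 and 2.80 with HMOX1si1 and 1.27 and 1.17 with HMOX1si2, so the knockdown was deeper with HMOX1si2. Of 7 epithelial markers, all were detected, and their summed level was 12993.8 to 14741.2 CPM in siControl, 9121.8 to 9365.7 with HMOX1si1 and 12917.0 to 13412.1 with HMOX1si2. Because blood cells make much of the interleukin-1 in tissue, 10 of their markers were summed: 137 to 156 CPM in siControl, 179 to 208 with HMOX1si1 and 132 to 162 with HMOX1si2. CD68, LYZ and CD14 made nearly all of that sum, CD3E, MS4A1 and FCGR3A had 0 counts in every library, and PTPRC, which all nucleated blood cells express, was at 0.184 CPM or less. In 8 fibroblast markers, of which LUM was nearly the whole, the sums were 119 to 125, 91.8 to 96.3 and 79.0 to 87.1 CPM in the same order of groups, and 6 endothelial markers together reached at most 1.82 CPM. Every library is labelled as AsPC-1, and no label names another cell type. Bulk RNA cannot tell fewer cells of a type from less RNA per cell.

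A gene was counted as expressed when it held enough counts for testing, which 7 of the 10 did: IL1RN, IL18, IL1A, IL1B, IL1R1, IL1RAP and CASP1. The other 3 were at or near 0. IL33, an alarmin of epithelial nuclei, had 0 counts in all 6 libraries. The epithelial ligand IL36G had 4 and 2 counts in siControl, 3 and 4 with HMOX1si1 and 9 and 4 with HMOX1si2. The decoy receptor IL1R2 had 4 and 0, 2 and 0, and 0 and 6 counts in the same order, so the groups overlapped for both genes.

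The family spans 4 chromosomes in GRCh38 (GENCODE 29), and none of the 10 genes shares an exon with another gene of the table. On chromosome 2, IL1A (ENSG00000115008) lies at 112773915 to 112784590 and IL1B (ENSG00000125538) at 112829751 to 112836903, both on the minus strand, followed on the plus strand by IL36G (ENSG00000136688) at 112973203 to 112985665 and IL1RN (ENSG00000136689) at 113107214 to 113134016. The receptor genes form another group on that chromosome, with IL1R2 (ENSG00000115590) at 101991844 to 102028544 and IL1R1 (ENSG00000115594) at 102064544 to 102179874, both on the plus strand. IL1RAP (ENSG00000196083) lies on chromosome 3 at 190514051 to 190659750 and IL33 (ENSG00000137033) on chromosome 9 at 6215786 to 6257983, both on the plus strand. CASP1 (ENSG00000137752) and IL18 (ENSG00000150782) lie on the minus strand of chromosome 11, at 105025443 to 105035250 and 112143251 to 112164117. Promoter sequences of 8 of the 10 genes were matched in the RefSeq table (GRCh38.p14), and IL18 and CASP1 had no entry.

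The 250 bases before a transcription start are shown for the antagonist and for the agonists IL1A and IL1B. The agonists shared an order of groups, and that of the antagonist was another. IL1RN has 3 starts in the table, from which a secreted form and intracellular forms are made, and the counts do not separate them. Capitals mark matches to AP-1 (TGANTCA) or to the core of the antioxidant response element (TGACNNNGC), each searched on both strands (the letters can overlap), and each sequence is written 5′ to 3′ on the strand of its gene.
IL1RN start 1 (chr2:113117721-113117970, strand +): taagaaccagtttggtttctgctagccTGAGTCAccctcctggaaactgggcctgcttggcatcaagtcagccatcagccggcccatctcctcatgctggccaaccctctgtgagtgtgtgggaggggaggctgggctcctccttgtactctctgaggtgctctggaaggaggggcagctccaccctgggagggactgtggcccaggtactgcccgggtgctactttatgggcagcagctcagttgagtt
IL1RN start 2 (chr2:113127239-113127488, strand +): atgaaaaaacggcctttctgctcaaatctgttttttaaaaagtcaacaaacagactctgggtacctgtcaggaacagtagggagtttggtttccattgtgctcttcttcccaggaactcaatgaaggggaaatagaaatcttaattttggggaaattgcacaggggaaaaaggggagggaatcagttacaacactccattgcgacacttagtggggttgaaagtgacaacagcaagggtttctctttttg
IL1A start 1 (chr2:112784494-112784743, strand -): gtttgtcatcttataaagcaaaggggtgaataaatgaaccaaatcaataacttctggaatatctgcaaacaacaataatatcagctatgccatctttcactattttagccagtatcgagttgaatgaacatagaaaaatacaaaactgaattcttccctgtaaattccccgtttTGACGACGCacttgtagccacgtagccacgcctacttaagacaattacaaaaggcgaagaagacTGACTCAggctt
IL1B start 1 (chr2:112836780-112837029, strand -): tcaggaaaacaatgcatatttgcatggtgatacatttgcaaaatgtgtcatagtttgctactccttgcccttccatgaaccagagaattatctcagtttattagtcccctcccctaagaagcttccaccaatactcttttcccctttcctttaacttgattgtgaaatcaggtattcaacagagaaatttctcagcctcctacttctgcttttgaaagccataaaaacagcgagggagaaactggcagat
One AP-1 match lies 223 to 217 bases before IL1RN start 1, and IL1RN start 2 and the IL1B start hold no match to either motif. Before IL1A start 1, an AP-1 match lies at 12 to 6 bases and a match to the antioxidant response element core at 76 to 68 bases. IL1A has 2 starts in the table, and the window of start 2, not shown, overlaps that of start 1. Before IL1A start 2, AP-1 matches lie at 105 to 99 and 55 to 49 bases and the antioxidant response element core at 169 to 161 bases. IL1RN start 3, also not shown, holds no match to either motif. No match to the NF-kappaB consensus was found in the 4 windows shown. Of 35116 promoter windows of 250 bases, 6.57% held the AP-1 letters, 10.9% those of the antioxidant response element core and 9.96% the NF-kappaB consensus, so the matches describe the letters only, and no binding was measured.

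Levels were also set per kilobase of annotated exon, a length that joins all exons of a gene, whichever transcripts were expressed. The order of genes at close levels can depend on that length. IL18 was by far the most abundant of the 10 in siControl, at 81.6 ± 3.43 CPM per kb (SD, n = 2). CASP1 followed at 2.11 ± 0.0284, IL1RN at 1.72 ± 0.0701, IL1RAP at 1.50 ± 0.630, IL1R1 at 1.28 ± 0.311, IL1A at 0.987 ± 0.0759 and IL1B at 0.873 ± 0.205 CPM per kb. IL18 stood apart from all others. IL1RAP did not differ from CASP1, IL1RN, IL1R1, IL1A or IL1B beyond the spread (SD) of their 2 libraries. The same held for IL1R1 beside IL1A and IL1B, and for IL1A beside IL1B. With HMOX1si1, IL1RN moved from the third place to the last of the 7 genes, at 0.457 ± 0.00584 CPM per kb, below IL1A at 1.82 ± 0.378 and IL1B at 1.22 ± 0.247. With HMOX1si2, IL1B was last at 0.388 ± 0.135 CPM per kb, under IL1A at 0.702 ± 0.0358 and IL1RN at 0.894 ± 0.0264.

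The antagonist IL1RN was lower with both siRNAs, and lowest with HMOX1si1. Its level was 5.78 and 5.45 CPM in siControl (209 and 242 counts), 1.50 and 1.48 CPM with HMOX1si1 (63 and 59 counts) and 2.97 and 2.85 CPM with HMOX1si2 (129 counts in each). The 3 groups did not overlap, and every knockdown library lay below both controls. The log2 fold change against siControl was -1.91 ± 0.16 (SE) with HMOX1si1 and -0.95 ± 0.15 with HMOX1si2, 2 comparisons that share their control libraries. The level with HMOX1si2 was above that with HMOX1si1 by 0.97 ± 0.16 on the log2 scale. That difference had a 95% interval of 0.58 to 1.36 (adjusted p = 0.0351, edgeR quasi-likelihood, Benjamini-Hochberg over all tested genes). The average of IL1RN that was known beforehand came from these same knockdown libraries. HMOX1 itself was lower with HMOX1si2, and a relation of IL1RN to the depth of knockdown was not tested.

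**Figure D1:**
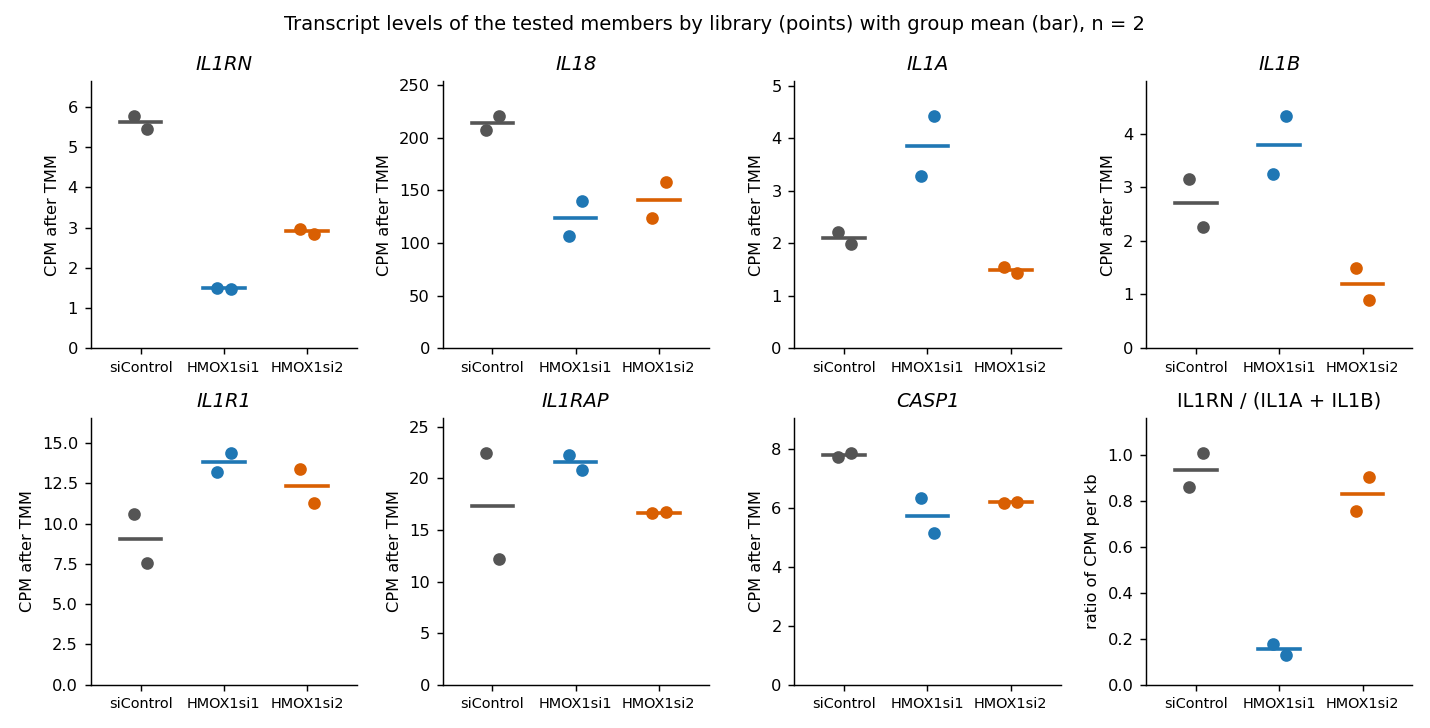
Level of the 7 tested genes in CPM in every library, by siRNA group, and in the last panel the ratio of IL1RN to IL1A and IL1B together per kilobase; each point is 1 library and each bar the mean of the 2. IL1RN is highest in siControl and lowest with HMOX1si1, IL1A and IL1B are highest with HMOX1si1 and lowest with HMOX1si2, and the ratio is lowest with HMOX1si1 (0.178 and 0.130).

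IL18, an inducer of interferon gamma in lymphocytes, was the most abundant ligand and was lower in all 4 knockdown libraries. It stood at 208 and 221 CPM in siControl, 107 and 140 with HMOX1si1 and 124 and 158 with HMOX1si2. The knockdown groups overlapped each other and lay below both controls, with log2 fold changes of -0.79 ± 0.17 and -0.60 ± 0.17. The difference of HMOX1si2 from HMOX1si1 was 0.19 ± 0.17 (95% interval -0.23 to 0.61, adjusted p = 0.591, edgeR), so a difference of either sign within that interval was not resolved.

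The agonists IL1A and IL1B shared an order of groups, highest with HMOX1si1 and lowest with HMOX1si2. IL1A stood at 2.21 and 1.98 CPM in siControl (80 and 88 counts), 3.29 and 4.43 CPM with HMOX1si1 (138 and 177 counts) and 1.54 and 1.44 CPM with HMOX1si2 (67 and 65 counts). Both HMOX1si1 libraries lay above the controls and both HMOX1si2 libraries below them, with log2 fold changes of 0.88 ± 0.22 and -0.49 ± 0.22. The difference of HMOX1si2 from HMOX1si1 was -1.37 ± 0.22 (95% interval -1.90 to -0.84, adjusted p = 0.0330, edgeR). IL1B stood at 3.15 and 2.25 CPM in siControl, 3.24 and 4.33 with HMOX1si1 and 1.50 and 0.906 with HMOX1si2. The HMOX1si1 libraries lay above and the HMOX1si2 libraries below the controls for IL1B too, although 1 HMOX1si1 library exceeded the higher control by little, and the log2 fold changes were 0.49 ± 0.31 and -1.16 ± 0.33. The difference for IL1B was -1.65 ± 0.32 (95% interval -2.44 to -0.86), which missed the threshold of 0.05 by edgeR's test (adjusted p = 0.0539). It passed when libraries were scaled by their totals alone (adjusted p = 0.0497, edgeR), when all genes with a count were tested (0.0350) and with DESeq2 (0.00128). It did not pass with DESeq2's size factors in edgeR (0.0543), with a replicate block (0.0938) or in any of the 6 fits that left out 1 library (0.0728 to 0.210, edgeR).

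Antagonist and agonist were also set against each other within each library. The level of IL1RN per kilobase divided by that of IL1A and IL1B together was 0.862 and 1.01 in siControl, 0.178 and 0.130 with HMOX1si1 and 0.754 and 0.904 with HMOX1si2. On counts without exon length it was 1.08 and 1.29, 0.23 and 0.169, and 0.977 and 1.22 in the same order. The HMOX1si1 libraries lay far below the other 4, while 1 HMOX1si2 library lay inside the range of the controls. The ratio has no test here, because it sets knockdown against control, the contrast that chose the list.

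The signalling receptor IL1R1 was at 10.6 and 7.53 CPM in siControl, 13.2 and 14.4 with HMOX1si1 and 13.4 and 11.3 with HMOX1si2. All 4 knockdown libraries lay above the controls, with log2 fold changes of 0.61 ± 0.20 and 0.45 ± 0.20. Its accessory chain IL1RAP was at 22.5 and 12.2 CPM in siControl, 22.3 and 20.8 with HMOX1si1 and 16.6 and 16.7 with HMOX1si2, so the controls enclosed every other library. Its average log2 fold change of 0.13 ± 0.24 became -0.24 without siControl replicate 2 and 0.63 without siControl replicate 1. The differences between the siRNAs were -0.16 ± 0.20 for IL1R1 (95% interval -0.64 to 0.32, adjusted p = 0.704, edgeR) and -0.38 ± 0.27 for IL1RAP (95% interval -1.04 to 0.29, adjusted p = 0.500, edgeR).

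CASP1, the protease that matures IL1B and IL18, stood at 7.74 and 7.89 CPM in siControl, 6.34 and 5.15 with HMOX1si1 and 6.18 and 6.21 with HMOX1si2. The knockdown libraries all lay below the controls and overlapped each other, with log2 fold changes of -0.44 ± 0.15 and -0.33 ± 0.15. The difference between the siRNAs was 0.11 ± 0.15 (95% interval -0.26 to 0.48, adjusted p = 0.750, edgeR).

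**Figure D2:**
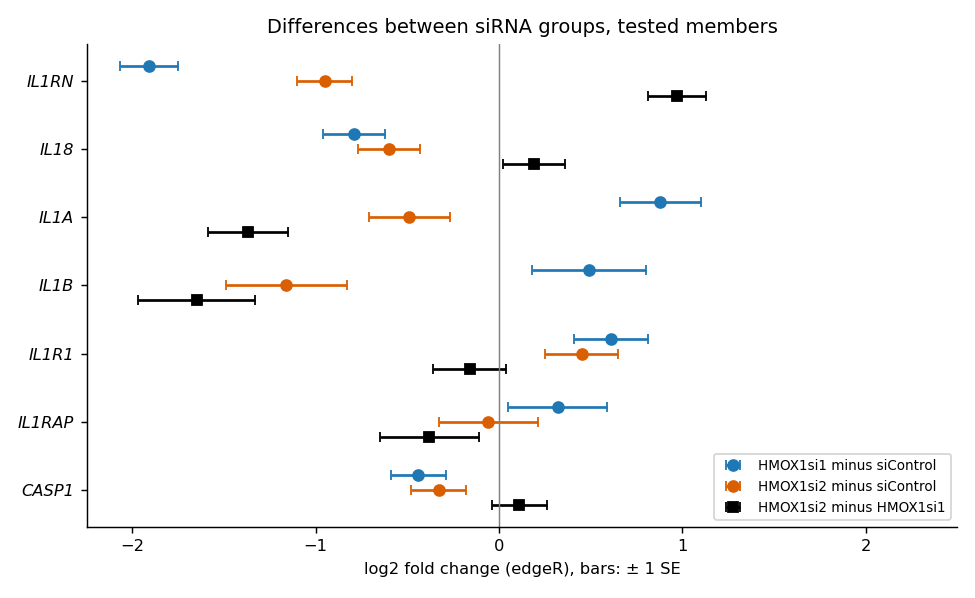
Log2 fold change of the 7 tested genes for each siRNA against siControl (circles) and for HMOX1si2 minus HMOX1si1 (squares), with bars of 1 SE. The squares of IL1RN (0.97) lie right of 0 and those of IL1A (-1.37) and IL1B (-1.65) left of it, while those of the other 4 lie within 0.38 of 0.

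In the fit over all genes, the genes with an adjusted p under 0.05 on the average of both siRNAs included IL1RN and IL18 of the 7 tested here, both lower, where 10.1% of the 13769 tested genes passed (5.16% higher and 4.93% lower). With HMOX1si1 they included the same 2 genes, where 10.0% of all tested genes passed, and with HMOX1si2 IL1RN, where 5.73% passed. Nothing is read from these counts, because this contrast chose the list, and leaving out 1 library left 0 to 2 genes on average (0 without either siControl library), 0 to 2 with HMOX1si1 and 0 with HMOX1si2. For the difference between the siRNAs, 2 of the 7 genes passed, IL1RN higher and IL1A lower with HMOX1si2, against 3.62% of all tested genes (2.14% higher and 1.49% lower). The median log2 difference of the 7 genes was -0.16, beside 0.00 over all tested genes. Both differences missed the threshold when any 1 of the 6 libraries was left out, with adjusted p of 0.0847 to 0.183 for IL1RN and 0.0790 to 0.151 for IL1A (edgeR). Their sizes ranged from 0.94 to 0.99 for IL1RN and from -1.57 to -1.14 for IL1A in those fits. The epithelial marker KRT8 stood at 3981.1 and 3772.3 CPM with HMOX1si1 and 5853.4 and 6295.1 with HMOX1si2. It also differed between the siRNAs (0.65 on the log2 scale, adjusted p = 0.0264, edgeR), and its part in these results was not tested. KRT8 shares exons with KRT18 on the opposite strand. None of the other epithelial markers passed, with log2 differences from -0.02 (EPCAM) to 0.48 (MUC1) and adjusted p from 0.0594 (KRT19) to 0.924 (EPCAM, edgeR). On the average of both siRNAs against control, KRT8 and KRT19 passed (-0.35 ± 0.08 and -0.51 ± 0.08, adjusted p = 0.0495 and 0.02, edgeR). The other epithelial markers did not. LUM of the fibroblast markers was lower too (-0.50 ± 0.08, adjusted p = 0.0244, edgeR). The part of these markers in the results was not tested.

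Of 101 further genes of the pathway, listed by role, 79 were tested: 9 rose and 6 fell on the average of both siRNAs by edgeR's test, where 5.16% of all tested genes were higher and 4.93% lower. With HMOX1si1, 19 of the 79 passed (24.1%, beside 10.0% of all tested genes), and with HMOX1si2 4 of 79 (5.06%, beside 5.73%). All 15 lost the call without siControl replicate 1 and again without siControl replicate 2, where 0 genes of the whole table passed on average (3459 and 2562 at an unadjusted p under 0.05). The list was made with earlier results of these libraries known, among them those of CXCL8 and ICAM1. The counts, and the p-values of its genes in knockdown against control, are therefore a description and not independent evidence of a direction.

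In the rest of the family, 1 of 7 tested genes rose and none fell on average, where 5.16% of all tested genes were higher and 4.93% lower. At an unadjusted p under 0.05 by edgeR there were 2 of the 7, beside 4316 of all 13769 tested genes. DESeq2 called 1, beside 2612 genes of the whole table. The gene that rose was IL1RL1, which encodes ST2, the receptor of IL33. It stood at 1.96 and 1.92 CPM in siControl, 8.11 and 8.08 with HMOX1si1 and 2.47 and 3.74 with HMOX1si2. All knockdown libraries lay above the controls, by 1.37 ± 0.20 on average on the log2 scale (adjusted p = 0.0203, edgeR), and HMOX1si2 lay below HMOX1si1 by 1.38 (log2 difference -1.38 ± 0.22, adjusted p = 0.0322, edgeR). The average lost its call without either siControl or either HMOX1si1 library (adjusted p up to 0.146, edgeR) and the difference in 5 of 6 such fits (up to 0.132). IL1RL1 shares exons with IL18R1 on the same strand, so reads may be divided between them. The other receptors did not pass: IL18R1, the ligand-binding chain for IL18, had an average log2 fold change of 0.44 ± 0.20, the related receptor genes IL1RAPL1 1.05 ± 0.35 and IL1RAPL2 0.57 ± 0.24, and the inhibitory receptor SIGIRR -0.17 ± 0.22. IL18RAP, the second chain of the IL18 receptor, reached at most 0.0451 CPM, and IL1RL2, the IL36 receptor, at most 0.0954. The median over the 7 was 0.44, beside -0.00 over all tested genes.

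Of the inflammasome and processing genes, 3 of 19 tested fell and none rose on average, with a median log2 fold change of -0.15, where 4.93% of all tested genes were lower. With HMOX1si1 3 of 19 passed (15.8%, beside 10.0% of all tested genes), and with HMOX1si2 1 of 19 (5.26%, beside 5.73%). CARD16, which encodes a protein of little more than the recruitment domain of caspase 1 and restrains it, was at 5.11 and 5.36 CPM in siControl, 2.58 and 2.35 with HMOX1si1 and 2.28 and 2.79 with HMOX1si2. It fell by 1.07 on the log2 scale (adjusted p = 0.0171, edgeR), with both siRNAs below both controls, and since CARD16 resembles CASP1 and overlaps CARD17P, its reads are uncertain. PYCARD, the adaptor ASC, was at 26.6 and 32.4, 15.5 and 13.9, and 19.3 and 25.6 CPM in the same order and fell by 0.70 (adjusted p = 0.0432, edgeR), and GSDME, a pore-forming gasdermin, fell by 0.67 (adjusted p = 0.0393, edgeR). The inflammatory caspase CASP4 had an average of -0.06 ± 0.15 and the calpain subunits CAPN1 and CAPNS1 -0.25 ± 0.08 and -0.53 ± 0.14, none of which passed. CAPN2, a calpain of the kind that cleaves the IL1A precursor, was lower with HMOX1si2 (411 and 443 CPM) than with HMOX1si1 (649 and 605 CPM), a log2 difference of -0.55 ± 0.09 (adjusted p = 0.0354, edgeR). The calls of CAPN2 and GSDME were lost in all 6 fits that left out 1 library (adjusted p up to 0.207 and 0.218, edgeR). That of PYCARD was kept without HMOX1si2 replicate 2 and lost in the other 5 (up to 0.253), and that of CARD16 was lost without either siControl library and without HMOX1si1 replicate 2 (up to 0.131).

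All 30 signalling genes were tested, and 4 rose and 1 fell on average, with a median of 0.02, where 10.1% of all tested genes passed. With HMOX1si1 8 of 30 passed (26.7%, beside 10.0% of all tested genes), and with HMOX1si2 2 of 30 (6.67%, beside 5.73%). TRAF6, the ubiquitin ligase that follows the IRAK kinases, was at 11.2 and 8.99 CPM in siControl, 17.1 and 20.4 with HMOX1si1 and 19.7 and 17.2 with HMOX1si2. It rose by 0.88 ± 0.15 (adjusted p = 0.0253, edgeR), without overlap between knockdown and control. The ubiquitin ligase PELI2 rose by 0.62 ± 0.10 (adjusted p = 0.0232, edgeR), and the NF-kappaB inhibitors NFKBIB and TNFAIP3 rose by 0.58 ± 0.12 and 0.58 ± 0.11 (adjusted p = 0.0408 and 0.0306, edgeR). NFKBIB shares exons with SIRT2 on the opposite strand, and the strand setting of the counting is not given in the sources used here. MAPK14, the p38 alpha kinase, fell by 0.75 on average (adjusted p = 0.0225, edgeR) and was at 46.5 and 47.5 CPM in siControl, 41.4 and 34.9 with HMOX1si1 and 18.3 and 22.6 with HMOX1si2. These 5 averages were lost without either siControl library, with adjusted p up to 0.217 (edgeR). Those of NFKBIB and TNFAIP3 were lost in 5 of the 6 fits that left out 1 library, those of TRAF6 and PELI2 in 4 (either HMOX1si1 library too), and that of MAPK14 in 3 (HMOX1si1 replicate 2 too).

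The clearest differences between the siRNAs among the signalling genes were in 2 kinases. IRAK2, which sustains signalling downstream of MYD88, was at 126 and 120 CPM in siControl, 186 and 185 with HMOX1si1 and 98.3 and 90.7 with HMOX1si2, in the same order of groups as IL1A. The log2 difference of HMOX1si2 from HMOX1si1 was -0.97 ± 0.09 (adjusted p = 0.0102, edgeR). MAP3K8, the kinase TPL2, was at 14.9 and 14.6, 9.37 and 8.48, and 20.3 and 19.9 CPM, a log2 difference of 1.17 ± 0.12 (adjusted p = 0.0115, edgeR). Both differences held in 4 of the 6 fits that left out 1 library and were lost without HMOX1si1 replicate 1 or 2 (adjusted p up to 0.0842 for IRAK2 and 0.0908 for MAP3K8, edgeR). MAPK14 differed by -0.90 ± 0.14 (adjusted p = 0.0324, edgeR) and lost that call in 5 of the 6 fits (up to 0.144). The most abundant genes of the list, the kinase IRAK1, the ubiquitin-conjugating variant UBE2V1 and the NF-kappaB inhibitor TNIP1, had averages of 0.11 ± 0.08, 0.04 ± 0.21 and 0.13 ± 0.13, and none passed.

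Among genes that interleukin-1 is known to induce, 23 of 34 were tested, and 4 rose and 2 fell on average, with a median of 0.12, where 10.1% of all tested genes passed. With HMOX1si1 7 of 23 passed (30.4%, median 0.48, beside 10.0% of all tested genes), and with HMOX1si2 1 of 23 (4.35%, median -0.01, beside 5.73%). The neutrophil chemokine CXCL8 was at 2.04 and 1.85 CPM in siControl, 6.70 and 4.50 with HMOX1si1 and 3.50 and 3.89 with HMOX1si2, an average log2 fold change of 1.23 ± 0.21. The adhesion molecule ICAM1 was at 2.35 and 2.30, 4.32 and 4.20, and 5.90 and 4.53 CPM, an average of 1.02 ± 0.17. For both genes all knockdown libraries lay above the controls, and since their averages were known when the list was made, they have no p here. The macrophage growth factor CSF1 rose by 0.52 ± 0.11 (adjusted p = 0.0453, edgeR) and the cytokine IL24 by 2.29 ± 0.51 (adjusted p = 0.0455, edgeR), the latter from 0.0829 and 0.338 CPM in siControl. The cytokine LIF and the ubiquitin ligase BIRC3 fell, by 0.37 and 0.49 (adjusted p = 0.0370 and 0.0462, edgeR). Of the abundant members of the list, LCN2 and TNFAIP2 had averages of 0.11 ± 0.18 and -0.17 ± 0.16 and IER3 0.12, and none passed. The averages of IL24 and LIF lost their call in all 6 fits that left out 1 library, and those of CSF1 and BIRC3 in 5, being kept without HMOX1si2 replicate 2 (adjusted p up to 0.205, edgeR).

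For the difference between the siRNAs, 7 of the 79 pathway genes passed by edgeR's test, 1 higher and 6 lower with HMOX1si2, with a median of -0.10, where 2.14% of all tested genes were higher and 1.49% lower. In the target list 2 of 23 passed. The collagenase MMP1 was at 17.2 and 17.0 CPM with HMOX1si1 and 8.62 and 7.01 with HMOX1si2, a log2 difference of -1.13 ± 0.15 (adjusted p = 0.0209, edgeR), with siControl between them at 11.8 and 10.2. CSF1 was at 83.3 and 89.7 CPM with HMOX1si1 and 59.6 and 47.3 with HMOX1si2, a difference of -0.69 ± 0.13 (adjusted p = 0.0479, edgeR). Both were lost in 5 of the 6 fits that left out 1 library, MMP1 being kept without HMOX1si2 replicate 1 and lost in the others, and CSF1 likewise (adjusted p up to 0.108 and 0.220, edgeR).

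**Figure D3:**
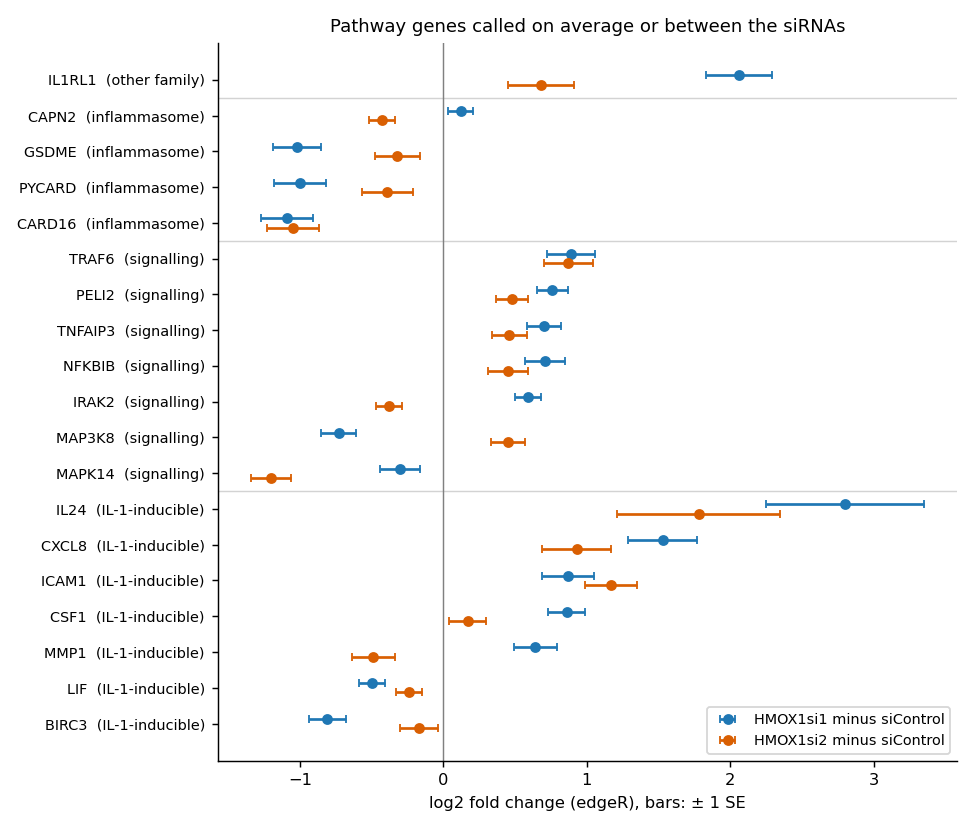
Log2 fold change against siControl with HMOX1si1 and with HMOX1si2 for the pathway genes that passed a test, with bars of 1 SE. IL1RL1 lies further right with HMOX1si1 than with HMOX1si2 (2.06 against 0.68). IRAK2 and MMP1 lie right of 0 with HMOX1si1 (0.59 and 0.64) and left of it with HMOX1si2 (-0.38 and -0.49).

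The neighbourhoods of both gene groups on chromosome 2 were examined within 500 kb. Around IL1RN, 12 of 18 genes were tested, where 4.93% of all tested genes were lower on average. Besides IL1RN the phosphate transporter SLC20A1 fell on average, by 0.66 (adjusted p = 0.0116, edgeR). IL37, a family member between IL1B and IL1RN with anti-inflammatory action, stood at 4.39 and 5.27 CPM in siControl, 6.80 and 4.90 with HMOX1si1 and 2.47 and 3.36 with HMOX1si2. Its level with HMOX1si2 was 0.498 times that with HMOX1si1 (95% interval of the log2 difference -1.60 to -0.41), and it did not pass (adjusted p = 0.0847, edgeR). That direction, shared by IL1A and IL1B, was not particular to the family. The log2 difference was also below 0 for SLC20A1 (-0.66 ± 0.09, adjusted p = 0.0195, edgeR) and CKAP2L (-0.64 ± 0.15, adjusted p = 0.0765, edgeR). It was above 0 for IL1RN (0.97), FOXD4L1 (0.28) and ZNG1B (0.04). Around IL1R1, 5 of 9 genes were tested, where 5.16% of all tested genes were higher on average. Beside IL1RL1 the kinase MAP4K4 rose by 0.87 ± 0.13 on average (adjusted p = 0.0205, edgeR). Without either siControl library 0 genes passed on average, these included.

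**Figure D4:**
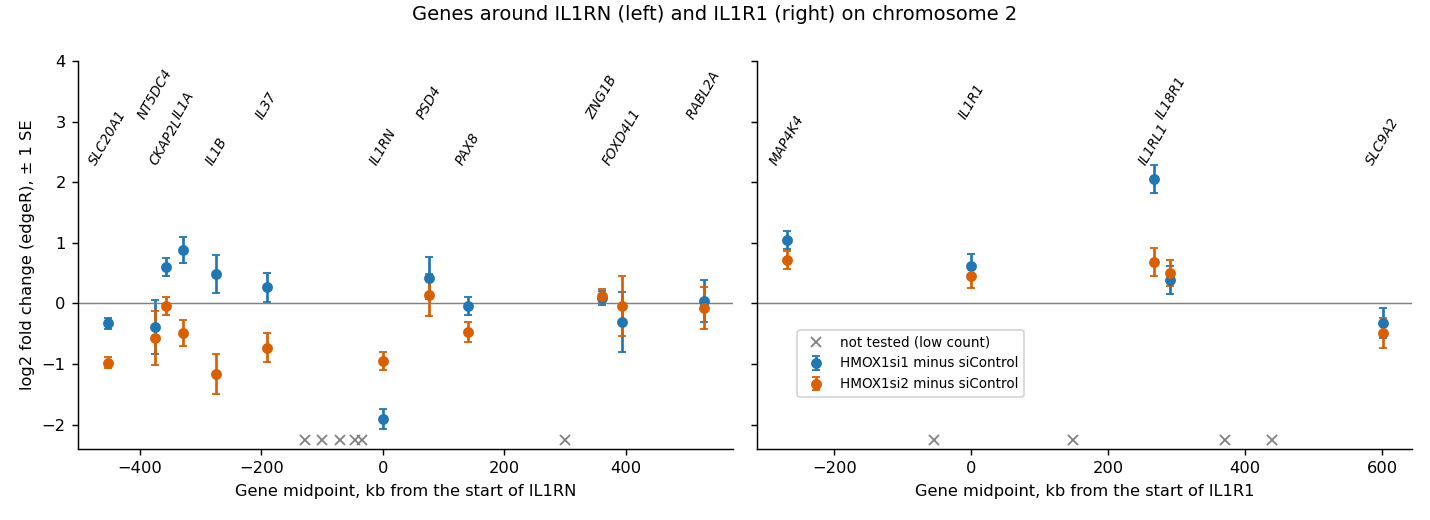
Log2 fold change against siControl, with bars of 1 SE, of genes within 500 kb of IL1RN (left) and of IL1R1 (right), by the distance of the gene's midpoint from the start of IL1RN or IL1R1 in kb; crosses mark genes with too few counts to test. IL1A, IL1B and IL37 lie above 0 with HMOX1si1 and below it with HMOX1si2, and IL1RN lies below 0 with both. CKAP2L also lies above 0 with HMOX1si1 (0.60) and, by little, below it with HMOX1si2 (-0.04).

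The genes with a pattern most like that of IL1RN over the 6 libraries, of 10838 compared, were TRNP1, GIPR and BDNF (Pearson r = 0.996 each) and VIL1 (r = 0.994), the last encoding the microvillus protein villin. Their mean levels in siControl, HMOX1si1 and HMOX1si2 were 405, 186 and 273 CPM for TRNP1 and 450, 142 and 279 CPM for VIL1. For IL18, of 10837 compared, they were EMC2 (r = 0.996), MBD4 and COL9A3 (r = 0.986 each) and KYAT1 (r = 0.984), of which EMC2 had an average log2 fold change of -0.22. VIL1 shares exons with USP37, MBD4 with IFT122 and COL9A3 with TCFL5, each on the opposite strand. The 6 points are 3 groups of 2 libraries, and the likeness is a description.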

How the data were processed

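AsPC-1 messenger RNA was measured in 2 libraries for each of the 3 siRNA groups, with totals of 36144330 to 45068660. The authors deposited 1 table, taken from its values to hold an estimated count per gene and library, made from reads by steps that no label or header describes. Rounding changed nothing, since all values were whole. Of values from 1 to 10, 71.9% were even, against 49.9% over 100; counting both mates of a fragment could give this, so a low count, and the limit of 3 counts, may stand for fewer fragments. For the aligner and the counting tool, nothing is given in the sources used here. The builds GRCm38 and mm10 are named, per the submitters' processing notes, but every gene identifier is human, which leaves the counting build unknown. Coordinates and exon lengths came from GENCODE 29 (GRCh38), which held 20224 of the 20263 genes. Symbols came from a separate list of gene names, and from GENCODE 29 where that list had none. There were 0 unused columns.

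Genes kept by filterByExpr (13769) entered a fit with a mean for each group, after TMM scaling, in edgeR 4.0.16 (quasi-likelihood test, R 4.3.3), with Benjamini-Hochberg adjustment over all tested genes and a threshold of 0.05. DESeq2 1.42.0, 2 other scalings, no filter, a replicate block and leaving out each library were alternatives. The procedure was tested on simulated data. CPM used TMM-scaled library sizes, and log2 CPM a prior count of 2. The 10 genes and all lists were chosen with earlier results of these data known. The text names all 10, HMOX1, up to 8 genes per list past the threshold, up to 3 more of highest level per list, receptors with a count, and the 4 genes most like IL1RN and IL18. Neighbouring genes were named after their values were seen. Libraries of a group differed beyond sampling noise (chi-square per degree of freedom 39.4 to 87.6).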

Additional observations from a re-analysis of the deposited data

Results flagged for a closer look

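The effects of the siRNAs on 2 of the 10 genes differed by the test of the difference itself. IL1A was lower with HMOX1si2 than with HMOX1si1 (log2 difference -1.37 ± 0.22, adjusted p = 0.0330, edgeR), and IL1RN was higher (0.97 ± 0.16, adjusted p = 0.0351, edgeR). The average change of IL1RN against control, which used the same knockdown libraries, was known when the list was drawn up. The contrast between the siRNAs leaves the control means out, but its spread was estimated with the control libraries too. The test for IL1RN is therefore not free of the choice. In all 6 fits that left out 1 library the adjusted p was above 0.05 for both, from 0.0790 to 0.151 for IL1A and from 0.0847 to 0.183 for IL1RN (edgeR).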

How the results depend on the processing

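Of 308 values of the 7 tested genes under the alternatives, 262 kept their direction and their side of the threshold, 33 no longer passed, 9 newly passed and 4 reversed. The reversals came from leaving out 1 library, over which IL1RAP ranged from -0.24 to 0.63 on average, from -0.06 to 0.82 with HMOX1si1 and from -0.43 to 0.44 with HMOX1si2, and the CASP1 difference between the siRNAs from -0.03 to 0.27. Leaving out 1 library gave 0 to 2 of the 7 genes called on average, 0 to 2 with HMOX1si1, 0 with HMOX1si2 and 0 for the difference, and 0 to 13 pathway genes on average and 0 to 4 for the difference (fewer libraries per fit). DESeq2 called 4 of the 10 genes with HMOX1si1, 3 with HMOX1si2 and 14 pathway genes for the difference. Over all genes it called 2612 on average, 2590 with HMOX1si1, 1845 with HMOX1si2 and 1367 for the difference, against 1389, 1381, 789 and 499 by edgeR. The cause was not tested.

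With a replicate block, 2 pathway genes passed on average and 2 for the difference, and of the 10 genes 0 with HMOX1si2 and 0 for the difference (3 and 3 at an unadjusted p under 0.05, edgeR; DESeq2 without the block called 3 and 3). Over all genes the block left 255, 481, 45 and 87 calls in the same order. Replicate numbers share no stated batch, and deviations of same-numbered libraries correlated at 0.00791, 0.0272 and -0.153, so the numbers were not taken as pairs.

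With 2 libraries per group, the 95% intervals of the differences between the siRNAs included 0 for IL18, IL1R1, IL1RAP and CASP1, which does not show that the siRNAs act alike on them.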
